A study of Xenopus laevis and Petromyzon marinus with 21 samples.

Results

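Animal caps, the ectodermal explants cut from the animal pole of frog blastulae, were compared at neurula stages 17 and 13 to find genes whose difference between neural crest-induced and control caps changed between these stages. Induced caps came from wild-type Xenopus laevis embryos that received wnt8a and chordin mRNA at the 2-cell stage. Control caps came from wild-type embryos left uninjected, which form epidermis. Both kinds were cut and cultured in the same salt medium, and each of the 4 groups (induced stage 17, control stage 17, induced stage 13, control stage 13) had 3 libraries of poly(A) RNA, 12 of the 21 samples of the series. The count columns carry a letter, a, b or c, which no label explains and which names the libraries here. No group received either mRNA alone or an unrelated mRNA, so the effects of Wnt8a, of chordin and of injection cannot be told apart. The quantity followed here, called the effect change, is the log2 difference of induced minus control caps at stage 17 minus the same difference at stage 13. A positive effect change means that the difference moved towards induced caps, and a negative one that it moved towards control caps. It was measured in 22488 of 49282 genes, and 3926 genes (17.5%) passed an adjusted p of 0.05 in edgeR's quasi-likelihood test with the letter as a block.

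Neural crest cells form at the border of the neural plate, where Wnt signals meet weakened BMP signals. Border genes and early specifiers come first, and genes of the migrating crest, such as sox10, twist1 and receptors for guidance cues, follow. Control caps instead become the mucociliary epidermis of the tadpole, in which keratin-rich goblet cells lie beside multiciliated cells and ionocytes. Xenopus laevis carries a long (L) and a short (S) copy of most genes, and each copy was counted as a gene of its own.

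Libraries held 15862312 to 23292078 gene counts and 26736 to 29097 detected genes. Pairs of libraries within a group differed by more than counting error, with chi-square values per degree of freedom of 19.4 to 49.0. The labels name no separate clutches, so p-values measure only a spread between libraries that may be technical. The epidermal list summed to 39041 to 53693 CPM (gene counts scaled to the library total) in induced and 87159.9 to 112854 CPM in control caps of stage 17, and to 24367 to 26395 CPM in induced and 69243 to 79458 CPM in control caps of stage 13, so epidermal transcripts were also present in induced caps. Induced library c of stage 13 stood apart from its sister libraries. Against their mean, its median member was 1.74 higher on the log2 scale in the multiciliated list, 2.04 higher in the ionocyte list, 1.11 higher in the neuronal list and 0.65 higher in the late crest list. Among induced libraries of stage 17, the median ionocyte gene was 1.26 higher in library a and 0.95 lower in library b than in the sisters. Fewer cells of a type and less RNA per cell cannot be told apart in these bulk samples.

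The injected genes marked the induced libraries at both stages. The Wnt ligand gene wnt8a.L stood at 7.51, 9.49 and 16.2 CPM in induced and 0.313, 0.137 and 0.329 CPM in control caps of stage 17. At stage 13 it stood at 27.9, 59.0 and 92.9 CPM in induced and 0.102, 0.0689 and 0.175 CPM in control caps. Its effect change was −3.46 ± 0.63 (adjusted p = 0.0055), and induced and control libraries did not overlap at either stage. The BMP antagonist gene chrd.1.S held 133, 193 and 153 CPM in induced caps of stage 17 and 1296, 1063 and 892 CPM in induced caps of stage 13, with 1 count in all control libraries of stage 17 and none in those of stage 13. Counts of the injected mRNA and of the embryos' own transcripts cannot be told apart, so neither gene is read as a response.

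Of the 3926 genes, 2316 (10.3% of genes tested) had a positive and 1610 (7.16%) a negative effect change. The median over all 22488 genes was 0.12, and it was 0.21 with library totals in place of TMM scaling. It was 0.01 in the DESeq2 fit, which differs in both scaling and model, so small changes depend on these choices. The positive share of calls was 59.0%, against 67.1% with library totals and 48.8% of 4692 calls with DESeq2. By the calls at each stage, 1023 differences grew (4.55% of genes tested), 1096 were called at stage 17 only (4.87%), 685 shrank (3.05%), 846 were called at stage 13 only (3.76%) and 261 reversed their sign (1.16%). The remaining 15 genes (0.0667%) were called at neither stage alone. As background, 31.3% of genes were higher and 29.6% lower in induced than in control caps at stage 17, and 25.5% higher and 28.5% lower at stage 13. Between the stages, 29.5% of genes rose and 25.4% fell in induced caps, and 27.2% rose and 28% fell in control caps. A call at 1 stage only does not show that the caps were alike at the other. Among differences that grew, control caps changed more between the stages than induced caps in 674 of 1023 genes. Among those that shrank, induced caps changed more in 460 of 685. Across all genes, the differences at stage 17 and stage 13 correlated with r = 0.78 (22488 genes, which are not independent replicates), and 9204 of the 9465 genes called at both stages had the same sign. Leaving out control library b of stage 17 left 2567 calls, and positive calls numbered 1429 to 1538 without induced library a of stage 13, control library a of stage 13 or control library b or c of stage 17.

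**Figure D1:**
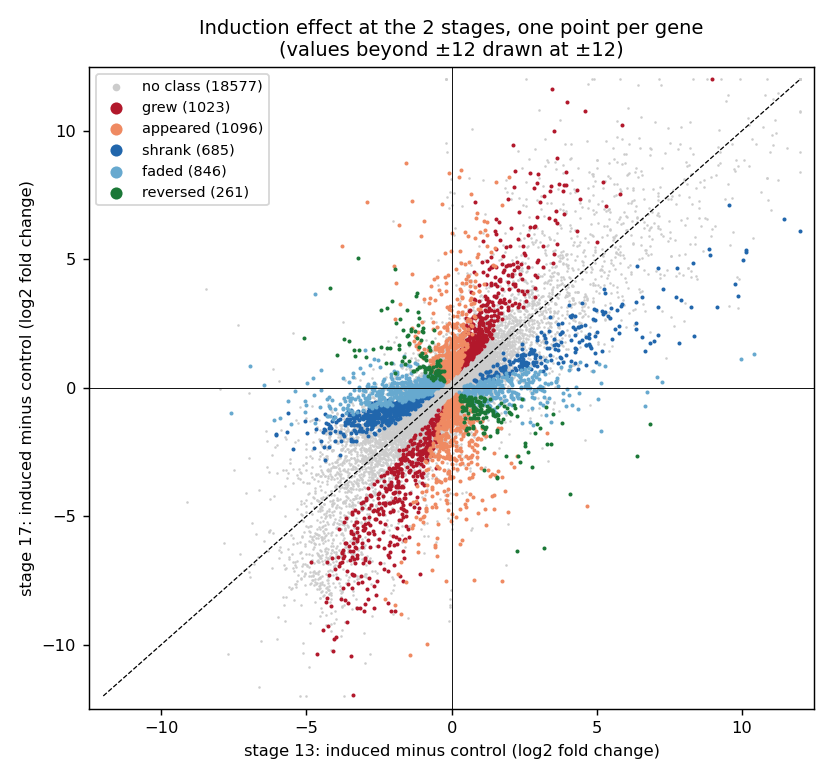
Log2 difference of induced minus control caps at stage 13 (horizontal axis) and stage 17 (vertical axis), one point per gene, coloured by class; the dashed line marks equal differences. The 1023 genes that grew lie farther from 0 on the stage 17 axis, the 685 that shrank lie nearer to it, and the 261 reversed genes lie in the upper left and lower right.

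Late and migrating crest genes had the highest median effect change of the 26 lists. Of 40 tested members of that list, 12 had a positive and 4 a negative effect change, where 10.3% and 7.16% of all genes did. This median was 1.09, against 0.12 over all genes, and the list summed to 3579 to 3882 CPM in induced and 700.0 to 859 CPM in control caps of stage 17. At stage 13 the sums were 1236 to 1966 CPM in induced and 771 to 812 CPM in control caps. Without induced library c of stage 13, 14 members were positive and 3 negative, with a median of 1.70. The gap did not widen across the whole list. With all libraries, the median log2 difference of its members was 1.86 at stage 17 and 2.32 at stage 13. By class, 3 members grew, 3 shrank, 4 reversed and 6 were called at stage 13 only. At each stage, 24 members were higher in induced caps, where 31.3% of all genes were at stage 17 and 25.5% at stage 13. Another 6 members were lower at stage 17 and 11 at stage 13, where 29.6% and 28.5% of all genes were. The PDGF receptor gene pdgfra.L, which guides crest and mesenchymal cells, stood at 161, 189 and 186 CPM in induced and 0.156, 0.41 and 0.165 CPM in control caps of stage 17. It stood at 19.5, 35.04 and 31.5 CPM in induced and 7.30, 5.99 and 5.84 CPM in control caps of stage 13. Both sides of the comparison moved, since it rose by 2.66 in induced caps and changed by −4.67 in control caps, and the groups overlapped at neither stage. Its effect change was 7.33 ± 0.38 (adjusted p = 2.22e-05), with log2 differences of 9.45 at stage 17 and 2.12 at stage 13.

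The bHLH factor twist1.L, a driver of mesenchymal behaviour in crest, held 161, 175 and 146 CPM in induced and 0.208, 1.18 and 0.165 CPM in control caps of stage 17. At stage 13 it held 4.97, 10.8 and 11.2 CPM in induced and 0.664, 1.65 and 1.17 CPM in control caps, and its effect change was 5.36 ± 0.67 (adjusted p = 0.00139). The copy twist1.S held 162, 182 and 167 CPM in induced caps of stage 17 and 17.4, 17.4 and 37.0 CPM in induced caps of stage 13, but its control values stayed under 0.5 CPM and its effect change of 1.48 ± 1.05 (adjusted p = 0.366) was not called. The SoxE factor sox8.L, which acts in crest specification, stood at 761, 733 and 698 CPM in induced and 2.03, 2.69 and 1.81 CPM in control caps of stage 17. It stood at 141, 179.9 and 163 CPM in induced and 14.4, 8.198 and 8.88 CPM in control caps of stage 13, with an effect change of 4.43 ± 0.30 (adjusted p = 4.69e-05). For sox9.L, the effect change was 1.78 ± 0.32 (adjusted p = 0.00538), although its level in induced caps was 48.1, 37.6 and 51.7 CPM at stage 17 and 70.8, 56.4 and 61.96 CPM at stage 13. There the control caps moved more, to 1.15, 0.319 and 0.604 CPM at stage 17, against 4.29, 2.27 and 3.097 CPM at stage 13. The orphan nuclear receptor gene nr2f1.L rose in induced caps, with 18.5, 34.7 and 27.0 CPM at stage 17 and 2.13, 1.82 and 5.63 CPM at stage 13, and its effect change was 4.52 ± 0.76 (adjusted p = 0.00409). All of pdgfra.L, twist1.L, sox8.L and sox9.L stayed called without any single library.

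sox10, the SoxE factor of the migrating crest and its glial and pigment derivatives, showed the limit of the contrast. sox10.L was at 195, 213 and 236 CPM in induced caps of stage 17 and at 0.0547, 0.959 and 3.85 CPM in induced caps of stage 13. sox10.S was at 296, 285 and 302 CPM in induced caps of stage 17 and at 0.875, 1.41 and 4.01 CPM in those of stage 13. Control caps of stage 17 held no count of either copy, and those of stage 13 held 1 count of sox10.L and none of sox10.S. With 3 counts over the group as the floor, sox10.L was at least 4291-fold higher and sox10.S at least 5828-fold higher in induced caps of stage 17. At stage 13 sox10.L was 85.0-fold higher (95% counting interval 14.9 to 3393) and sox10.S at least 36.3-fold higher. Neither copy was called for the effect change (adjusted p = 0.434 and 1), and with empty control groups a fitted value is no bound. The induced caps alone rose by 7.39 (sox10.L) and 7.28 (sox10.S) on the log2 scale. With DESeq2 in place of edgeR both copies were called, with effect changes of 8.95 for sox10.L and 7.49 for sox10.S, and sox10.L was also called by edgeR with the block within stage (9.11). The forkhead factor foxd3.L, a crest progenitor gene, was similar, with 348, 376 and 352 CPM in induced caps of stage 17 and 28.5, 31.6 and 87.8 CPM in those of stage 13, no control count at stage 17, and a fitted effect change of 7.09 ± 2.17 (adjusted p = 0.0686). Its induced caps were at least 7106-fold higher at stage 17. foxd3.L was called with DESeq2 (6.29), with the block within stage (6.91), with all 18 frog libraries (7.21), without induced library c of stage 13 (7.62) and without induced library c of stage 17 (7.55). Its copy foxd3.S was not called with all libraries or in any alternative fit by edgeR or DESeq2 (adjusted p of 0.46 or more in the alternatives). The sign of the foxd3.S value turned without control library b of stage 13.

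**Figure D2:**
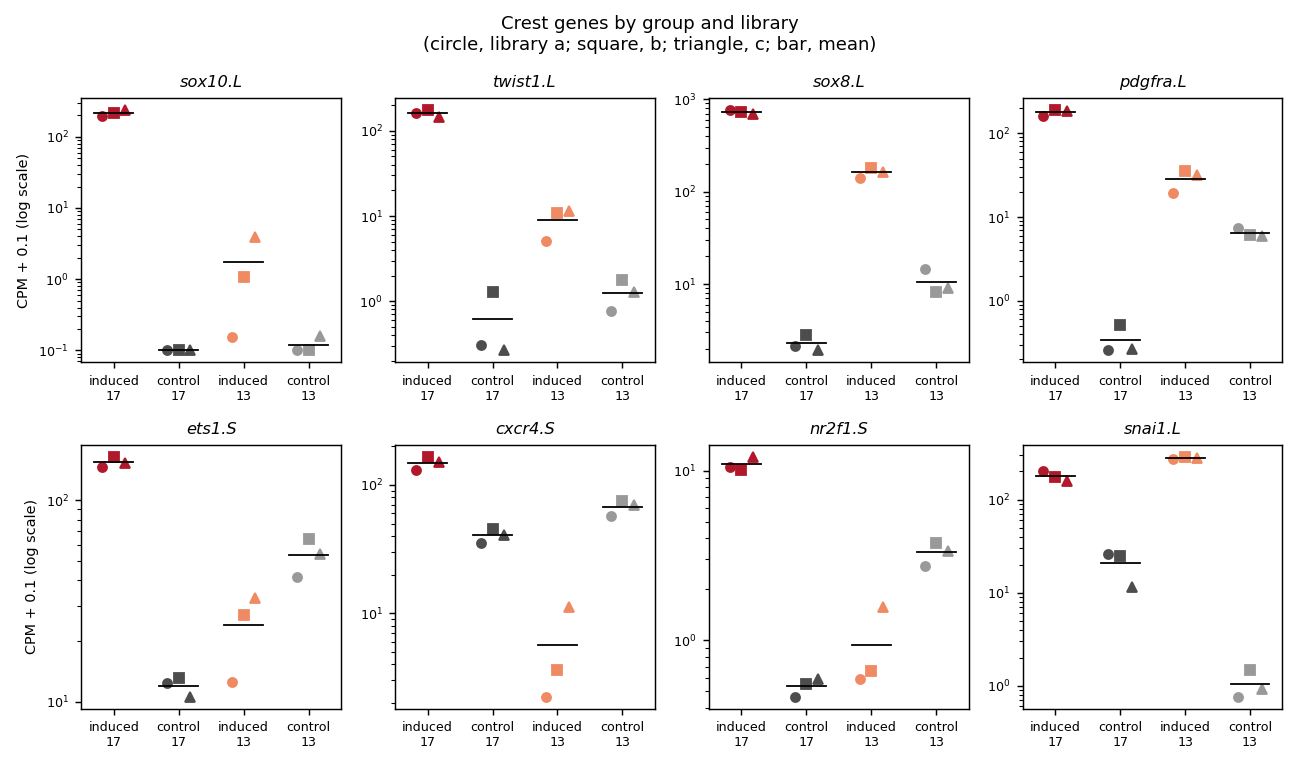
CPM plus 0.1 on a log axis for 8 crest genes, with induced caps of stage 17, control caps of stage 17, induced caps of stage 13 and control caps of stage 13 on the horizontal axis; each symbol is 1 library and each bar a mean of 3. twist1.L, sox8.L and pdgfra.L part further at stage 17, ets1.S, cxcr4.S and nr2f1.S lie higher in control caps at stage 13 and higher in induced caps at stage 17, and the snai1.L groups lie closer together at stage 17.

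Several crest genes were lower in induced than in control caps at stage 13 and higher at stage 17. The ETS factor ets1.S, which acts in crest delamination, held 145, 165 and 153 CPM in induced and 12.3, 12.9 and 10.5 CPM in control caps of stage 17. At stage 13 it held 12.46, 26.7 and 32.5 CPM in induced and 41.5, 64.4 and 54.1 CPM in control caps. Every induced library was above every control library at stage 17 and below at stage 13. The log2 differences were 3.69 at stage 17 and −1.19 at stage 13, and the effect change was 4.88 ± 0.36 (adjusted p = 9.74e-05). Its copy ets1.L stood at 78.5, 92.0 and 71.8 CPM in induced and 85.5, 107 and 87.3 CPM in control caps of stage 17, groups that overlapped. At stage 13 ets1.L stood at 7.49, 9.69 and 13.8 CPM in induced and 37.3, 48.8 and 42.3 CPM in control caps, with an effect change of 1.85 ± 0.25 (adjusted p = 0.00124). For ets1.L the lower level in induced caps was called at stage 13 and not at stage 17, while for ets1.S the difference was called in opposite directions.

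The chemokine receptor gene cxcr4.S, which guides migrating crest, reversed likewise. It held 129.9, 166 and 151 CPM in induced and 35.1, 45.4 and 40.5 CPM in control caps of stage 17, against 2.13, 3.48 and 11.1 CPM in induced and 57.4, 75.3 and 69.3 CPM in control caps of stage 13. Its effect change was 5.603 ± 0.58 (adjusted p = 0.000841), and its copy cxcr4.L, called at stage 13 only, had 3.08 ± 0.63 (adjusted p = 0.0135). nr2f1.S stood at 10.4, 9.96 and 12.01 CPM in induced and 0.365, 0.456 and 0.494 CPM in control caps of stage 17. At stage 13 it stood at 0.492, 0.555 and 1.47 CPM in induced and 2.66, 3.65 and 3.27 CPM in control caps, with an effect change of 6.58 ± 0.46 (adjusted p = 4.54e-05). In ets1.S, ets1.L, cxcr4.S and nr2f1.S induced library c was the highest of its group at stage 13. Without library c the effect changes were 5.21 for ets1.S, 6.47 for cxcr4.S and 7.14 for nr2f1.S, all still called. The semaphorin gene sema3f.L, a guidance cue for crest streams, also changed sign, with log2 differences of 0.80 at stage 17 and −1.12 at stage 13 and an effect change of 1.92 ± 0.21 (adjusted p = 0.000425). Among members that went the other way, the matrix metalloprotease gene mmp14.L had an effect change of −3.01 ± 0.57 (adjusted p = 0.00978) although it rose in both kinds of caps, by 1.15 in induced and 4.16 in control caps. The forkhead factor foxc1.S, also a mesoderm gene, had −4.76 ± 0.88 (adjusted p = 0.00693), with 0.311, 0.301 and 0.539 CPM in induced caps of stage 17 and 25.6, 5.76 and 6.69 CPM in those of stage 13. The other negative members were both copies of nr2f2, so nr2f2 went against nr2f1 of the same list.

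The early crest specifiers split: of 20 tested, 4 (20%) had a positive and 3 (15%) a negative effect change. Over all genes tested, 10.3% were positive and 7.16% negative, and the list median was 0.56. The negative count was 1 without any 1 of induced library b or c of stage 17, control library a or b of stage 17 and library b of either kind at stage 13. The Snail factors, repressors that act when crest cells detach, were the negative ones. snai1.L stood at 204, 176 and 158 CPM in induced and 26.1, 24.7 and 11.5 CPM in control caps of stage 17. At stage 13 snai1.L stood at 272, 289 and 276 CPM in induced and 0.664, 1.38 and 0.818 CPM in control caps. Induced caps stayed far above control caps at both stages, but control caps had gained the transcript, by 4.44 on the log2 scale. The effect change was −5.09 ± 0.38 (adjusted p = 0.000111). For snai1.S it was −1.29 ± 0.35 (adjusted p = 0.0346), a call lost without the replicate block (value −1.25) and in 8 of the 12 fits that left out 1 library. The control caps at stage 13 held no count of snai2.S, whose low levels stayed under 13 CPM in every library; its call (adjusted p = 0.0377) was lost in 8 of the 12 fits as well. The more abundant copy snai2.L was not called: it held 528, 599 and 485 CPM in induced and 8.59, 6.47 and 3.90 CPM in control caps of stage 17. At stage 13 snai2.L held 264, 447 and 384 CPM in induced and 4.24, 5.30 and 1.93 CPM in control caps, with an effect change of −0.20 ± 0.43 (adjusted p = 0.791), and the sign of that value turned when 1 library was left out. The Wnt- and growth-responsive factor myc.L had 0.42 ± 0.31 (adjusted p = 0.38) and myc.S 0.16 ± 0.29 (adjusted p = 0.743), neither called.

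All called genes of the neural plate border moved one way. Of 21 tested members, 6 had a negative and none a positive effect change by edgeR (0 also by DESeq2 and at an unadjusted p under 0.05), and the list median was −1.33, against 0.12 over all genes. Of all genes tested, 7.16% were negative and 10.3% positive. The zinc-finger repressor prdm1.L, which acts at the border in crest and sensory neuron specification, stood at 0.829, 1.85 and 4.77 CPM in induced and 6.46, 2.83 and 1.26 CPM in control caps of stage 17. At stage 13 prdm1.L stood at 123, 118 and 85.5 CPM in induced and 3.17, 2.89 and 3.92 CPM in control caps. The groups overlapped at stage 17 and lay far apart at stage 13, and the effect change was −5.48 ± 0.97 (adjusted p = 0.0085). Its copy prdm1.S had −4.83 ± 0.46 (adjusted p = 0.00043), with 8.55, 5.196 and 10.8 CPM in induced caps of stage 17 and 241, 242 and 129 CPM in those of stage 13. The bHLH repressor hes4.S, which keeps border cells undifferentiated, had −2.53 ± 0.32 (adjusted p = 0.00103). The homeobox genes msx2.S and msx2.L, BMP-responsive border factors, had −2.35 ± 0.30 (adjusted p = 0.00112) and −1.71 ± 0.26 (adjusted p = 0.00267). For both msx2 copies control caps gained, by 1.57 (msx2.S) and 0.99 (msx2.L), while induced caps held 168, 203 and 182 CPM of msx2.L at stage 17 and 237, 357 and 318 CPM at stage 13.

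No copy of pax3, zic1 or tfap2a, which also act at the border, was called. pax3.L stood at 107, 339 and 185 CPM in induced caps of stage 17 and 537, 487 and 490.0 CPM in those of stage 13, with 2 counts in control caps of stage 17 and none at stage 13, and its fitted effect change of −4.01 ± 2.89 (adjusted p = 0.39) carried a wide error. The induced libraries of stage 17 ranged widely for this paired-box gene, with library a lowest. zic1.L, a zinc-finger factor that acts with pax3, stood at 97.6, 146 and 105 CPM in induced caps of stage 17 and 131, 128 and 175 CPM in those of stage 13, with an effect change of −0.49 ± 0.81 (adjusted p = 0.728). The AP-2 factor tfap2a, shared by border, crest and epidermis, had −0.29 ± 0.17 (adjusted p = 0.28) for tfap2a.L and −0.56 ± 0.19 (adjusted p = 0.0664) for tfap2a.S. tfap2a.S was called with DESeq2 (−0.67) and without induced library b of stage 13 (−0.68) or control library b of stage 13 (−0.70).

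Neural plate and Hox genes were called mostly in the negative direction. Over all genes tested, 7.16% were negative and 10.3% positive. Of 20 neural plate members 7 had a negative and none a positive effect change by edgeR (0 by DESeq2, 1 at an unadjusted p under 0.05), with a median of −1.09. Without control library b of stage 17, 4 were negative. Without induced library c of stage 13 the counts were 6 negative and 2 positive. The Iroquois factor irx3.L, which marks the posterior neural plate, held 3.31, 1.202 and 3.85 CPM in induced and 1.88, 1.28 and 0.11 CPM in control caps of stage 17. At stage 13 irx3.L held 38.4, 27.5 and 34.2 CPM in induced and 0.0511, 0 and 0 CPM in control caps. The groups overlapped at stage 17, while at stage 13 irx3.L was 1701-fold higher (95% counting interval 305 to 67232) in induced caps. Its effect change was called (adjusted p = 0.00274). The head factor otx2.S shrank as well, by −1.82 ± 0.34 (adjusted p = 0.00663), with log2 differences of 1.21 at stage 17 and 3.03 at stage 13. Of 31 Hox genes, which pattern the body axis, 8 had a negative and 1 a positive effect change, with a median of −1.45. The negative count was 4 without control library b of stage 17 and 5 without induced library b of stage 17, control library a of stage 17 or control library c of stage 13. hoxb1.L overlapped between the stages in induced caps, with 40.4, 42.1 and 32.1 CPM at stage 17 and 23.2, 36.2 and 23.7 CPM at stage 13. In control caps it held 1.302, 1.96 and 0.494 CPM at stage 17 and 0, 0 and 0.0584 CPM at stage 13, where they held 1 count, and the effect change was called (adjusted p = 0.00302). hoxb1.S had −5.73 ± 0.89 (adjusted p = 0.00463), with 8.75, 8.89 and 2.80 CPM in control caps of stage 17 and 0, 0.551 and 0 CPM in those of stage 13. When induced library c of stage 13 was left out, 10 Hox genes were negative, the positive call was lost, and the median was −2.31. The median Hox gene was 1.90 higher at stage 17 than at stage 13 in control caps and changed by −0.01 in induced caps. In control caps only 8 of the 31 averaged at least 1 CPM at either stage, and 5 had no count at stage 13, so the control median rests on low counts. Summed over the list, induced caps fell to 196 to 267 CPM at stage 17 from 317 to 532 CPM at stage 13. Control caps rose to 119 to 148 CPM from 17.6 to 71.2 CPM.

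Among Wnt targets and feedback genes, 10 of 44 had a negative and none a positive effect change by edgeR (0 by DESeq2, 2 at an unadjusted p under 0.05). Over all genes tested, 7.16% were negative and 10.3% positive, and the list median was −0.74. The negative count was 5 without control library a of stage 17 and 6 without control library b of stage 17 or control library c of stage 13. The positive count was 2 without control library a of stage 13 and 1 with library totals or with the block within stage. The Wnt effector lef1.S had −2.72 ± 0.43 (adjusted p = 0.00278), with 5.54, 5.11 and 4.004 CPM in induced and 1.67, 1.37 and 0.659 CPM in control caps of stage 17. At stage 13 lef1.S had 13.7, 15.7 and 15.6 CPM in induced and 0.409, 0.758 and 0.584 CPM in control caps, so the groups stayed apart at both stages but came closer. kremen2.L, a receptor for Dickkopf inhibitors of Wnt signalling, had −2.69 ± 0.42 (adjusted p = 0.00264), with 12.6, 13.6 and 8.05 CPM in induced caps of stage 17 and 35.1, 54.5 and 25.9 CPM in those of stage 13. The Wnt receptor gene fzd8.L grew in the other sense: it was lower in induced caps at both stages, with log2 differences of −3.75 at stage 17 and −1.23 at stage 13. The list holds the injected wnt8a itself and hoxd1 and msgn1, which other signals also control. The gene gbx2.1.S, described further below, was not matched to this list or to the border list. hoxd1.S, an early trunk gene, held 0.466, 1.202 and 1.96 CPM in induced caps of stage 17 and 87.5, 101 and 53.2 CPM in those of stage 13. Its call (adjusted p = 0.0293) was lost without induced library b of stage 17, without control library c of stage 13 and without any 1 of the control libraries of stage 17, with values of −5.73 to −6.14.

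Notch pathway genes showed both shrinking and reversed differences. Of 26 tested, 8 had a negative and 2 a positive effect change, where 7.16% and 10.3% of all genes did. The list median was −0.04. The median was 0.22 without induced library c of stage 13. The positive count was 1 without induced library a or c of stage 17, control library b or c of stage 17 or control library a or b of stage 13. The Notch ligand gene jag1.L stood at 6.68, 6.61 and 8.82 CPM in induced and 4.01, 2.598 and 4.83 CPM in control caps of stage 17. At stage 13 jag1.L stood at 38.8, 41.2 and 35.7 CPM in induced and 2.14, 1.79 and 2.16 CPM in control caps, and the effect change was −3.29 ± 0.29 (adjusted p = 0.000164). The Notch target hes1.S, a bHLH repressor, held 10.7, 4.64 and 5.66 CPM in induced and 10.7, 12.35 and 10.8 CPM in control caps of stage 17. At stage 13 hes1.S held 37.4, 38.9 and 40.6 CPM in induced and 3.98, 3.44 and 4.79 CPM in control caps. Induced libraries were far above control libraries at stage 13 and at or below them at stage 17, so hes1.S reversed, and its effect change was −3.999 ± 0.37 (adjusted p = 0.000208). hes1.L had −3.202 ± 0.33 (adjusted p = 0.000347), with no difference called at stage 13. The glycosyltransferase gene lfng.S, a modifier of Notch receptors, reversed: 8.23, 7.34 and 11.1 CPM in induced and 39.2, 27.0 and 33.2 CPM in control caps of stage 17, against 66.0, 54.5 and 56.0 CPM in induced and 23.2, 26.04 and 21.6 CPM in control caps of stage 13. Its effect change was −3.198 ± 0.25 (adjusted p = 8.55e-05), and that of lfng.L was −2.71 ± 0.41 (adjusted p = 0.00278). The copy jag1.S went the other way from jag1.L, with 2.6 ± 0.72 (adjusted p = 0.0348), but this call was lost in 8 of the 12 fits that left out 1 library.

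**Figure D3:**
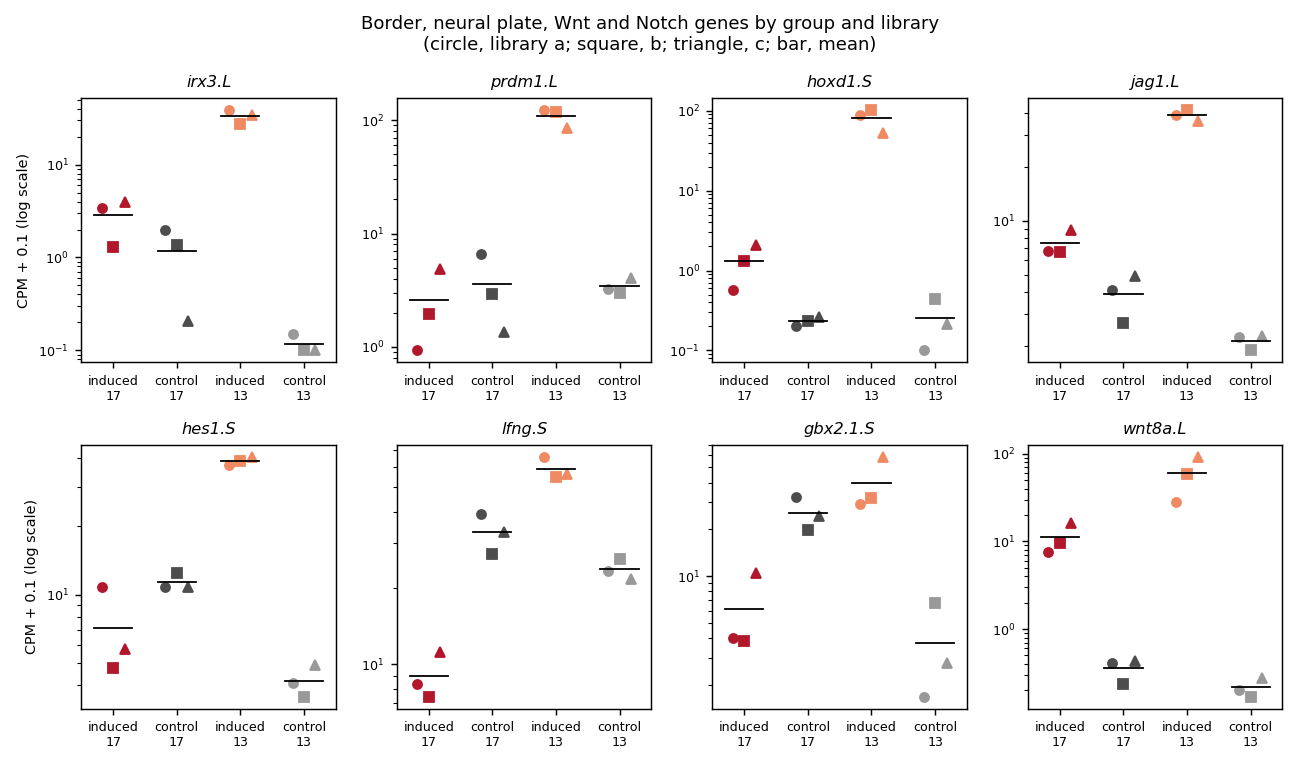
CPM plus 0.1 on a log axis for 8 genes, with induced caps of stage 17, control caps of stage 17, induced caps of stage 13 and control caps of stage 13 on the horizontal axis. The genes belong to the border, neural plate, Notch and Wnt lists, except gbx2.1.S, which was counted in none of them. Each symbol is 1 library and each bar a mean of 3. Induced caps of stage 13 have the highest mean in all 8 panels, and control caps of stage 17 come next for prdm1.L, hes1.S, lfng.S and gbx2.1.S.

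Of 40 BMP pathway genes, 2 had a positive and 4 a negative effect change, where 10.3% and 7.16% of all genes did, with a median of 0.16. The ligand gene bmp4.S had −2.22 ± 0.42 (adjusted p = 0.00833), with 1.04, 3.82 and 3.54 CPM in induced and 73.8, 77.2 and 81.3 CPM in control caps of stage 17. At stage 13 bmp4.S had 20.6, 18.6 and 18.5 CPM in induced and 114, 105 and 126 CPM in control caps, so its lower level in induced caps became more marked. The BMP target id3.S, an inhibitor of differentiation, reversed by a small amount, 1.03 ± 0.15 (adjusted p = 0.00197), with 354, 392 and 400.1 CPM in induced and 272, 277 and 251 CPM in control caps of stage 17. At stage 13 id3.S had 245, 289 and 269 CPM in induced and 433, 368 and 345 CPM in control caps. The id3.S call was lost in the fit with all 18 frog libraries. Its copy id3.L was not called, with effect changes of 0.24 to 0.38 over the fits that left out 1 library. Without induced library c of stage 13, 10 BMP members were positive and 4 negative with a median of 0.40, and the T-box gene tbx3.L among them is described with the ciliated genes.

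Of 29 FGF pathway members, 4 were positive and 4 negative, where 10.3% and 7.16% of all genes were. The positive count was 2 with DESeq2 and without any 1 of the 6 libraries of stage 13, induced library a of stage 17 or control library b of stage 17. The receptor gene fgfr4.L fell in both kinds of caps, to 216, 183 and 185 CPM in induced and 9.32, 5.88 and 7.30 CPM in control caps of stage 17, against 642, 614 and 522 CPM in induced and 64.3, 70.2 and 65.9 CPM in control caps of stage 13. It fell more in control caps, which gave an effect change of 1.56 ± 0.19 (adjusted p = 0.000764). The feedback inhibitor genes il17rd.S (−2.90 ± 0.48, adjusted p = 0.00371) and spry2.L (−3.54 ± 0.77, adjusted p = 0.0125) went down instead. In the retinoic acid list 4 of 23 members were positive and 3 negative. The retinol dehydrogenase gene rdh10.L, which makes the precursor of retinoic acid, stood at 30.3, 39.3 and 35.6 CPM in induced and 4.27, 3.65 and 5.11 CPM in control caps of stage 17. At stage 13 rdh10.L stood at 25.3, 42.6 and 65.7 CPM in induced and 137, 98.9 and 136 CPM in control caps. Control caps fell by 4.85 on the log2 scale, and induced caps changed by −0.28. The effect change was 4.56 ± 0.38 (adjusted p = 0.000164). cyp26a1.L, whose enzyme breaks retinoic acid down, grew by 2.19 ± 0.39 (adjusted p = 0.00521), and dhrs3.L, which turns retinal back to retinol, changed by −2.56 ± 0.51 (adjusted p = 0.00991).

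Of 47 epidermal genes, 10 had a positive and 5 a negative effect change, where 10.3% and 7.16% of all genes did. The other 32 were not called, and the list median was 0.30. The median was 0.53 without induced library c of stage 13. For a gene that is lower in induced caps, a positive value means that its deficit became smaller. The keratin gene krt70.L held 2903, 2352 and 2746 CPM in induced and 1814, 2093 and 1863 CPM in control caps of stage 17. At stage 13 krt70.L held 744, 458 and 992 CPM in induced and 2475, 2150.1 and 2355 CPM in control caps. Induced libraries were all below control libraries at stage 13 and all above at stage 17, although the stage 17 difference was not called, and the effect change was 2.16 ± 0.28 (adjusted p = 0.0016). krt8.2.S, which codes for a simple-epithelium keratin, had 2.12 ± 0.43 (adjusted p = 0.0118). The Krüppel-like factor genes klf5.L and klf5.S, regulators of surface ectoderm, had 1.596 ± 0.18 (adjusted p = 0.000506) and 1.59 ± 0.17 (adjusted p = 0.000374). Grainyhead factors, which direct epidermal barrier formation, split: grhl3.L had 1.35 ± 0.24 (adjusted p = 0.0051) and grhl3.S 1.53 ± 0.24 (adjusted p = 0.00317), while grhl2.L had −2.43 ± 0.31 (adjusted p = 0.001). grhl2.L stood at 10.1, 5.07 and 6.85 CPM in induced and 10.9, 8.48 and 6.04 CPM in control caps of stage 17. At stage 13 grhl2.L stood at 16.6, 10.4 and 11.1 CPM in induced and 3.98, 2.76 and 1.64 CPM in control caps. The adhesion gene epcam.L reversed, with log2 differences of −0.83 at stage 17 and 0.996 at stage 13 and an effect change of −1.83 ± 0.27 (adjusted p = 0.00278).

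Multiciliated cell genes held the most negative calls of the 26 lists by number. By share of members, the neural plate list was as high, at 35%, and the Notch and endoderm lists were at 30.8% and 30%. Of 46 ciliated genes tested, 16 (34.8%) had a negative and 4 (8.70%) a positive effect change, where 7.16% and 10.3% of all genes did. The list median was −1.53. The median was −0.81 without induced library c of stage 13, and 10 were negative without induced library b or c of stage 17. In all, 44 were lower in induced caps at stage 17, where 29.6% of all genes were. The list summed to 388 to 491 CPM in induced and 4363 to 5642 CPM in control caps of stage 17. At stage 13 the sums were 504 to 942 CPM in induced and 3169 to 5179 CPM in control caps. The dynein heavy chain gene dnah9.S held 8.39, 3.05 and 5.74 CPM in induced and 385, 431 and 444 CPM in control caps of stage 17. At stage 13 dnah9.S held 39.4, 32.1 and 112 CPM in induced and 187, 315 and 325 CPM in control caps, and its effect change was −3.92 ± 0.66 (adjusted p = 0.00684). Induced library c of stage 13 was nearest to the controls, and without it the value was −3.32. Others were the ciliary shaft genes mns1.S (−3.39 ± 0.38, adjusted p = 0.000567) and cfap52.L (−3.05 ± 0.37, adjusted p = 0.00107) and the dynein light chain gene dnali1.S (−2.47 ± 0.37, adjusted p = 0.00243). gas2l2.L, which helps to orient cilia, rose in control caps: it stood at 0.518, 0.215 and 0.539 CPM in induced and 26.1, 32.2 and 31.6 CPM in control caps of stage 17, and at no more than 1.29 CPM in any library of stage 13. For gas2l2.L the effect change was −5.64 ± 0.65 (adjusted p = 0.000623). The cyclin A1 gene ccna1.L also rose in control caps and stood at 0.259, 0.258 and 0.269 CPM in induced and 29.3, 33.9 and 45.2 CPM in control caps of stage 17, with an effect change of −6.43 ± 0.42 (adjusted p = 3.2e-05).

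The 4 positive members of the ciliated list were the transcription factor gene rfx2 and the tubulin gene tuba1a, each in both copies. rfx2.S, a regulator of ciliary genes that acts upstream of them, held 14.7, 14.3 and 18.9 CPM in induced and 28.3, 40.1 and 40.6 CPM in control caps of stage 17. At stage 13 rfx2.S held 11.9, 17.7 and 26.4 CPM in induced and 146, 115 and 132 CPM in control caps. Control caps fell by 1.88 on the log2 scale, and the effect change was 1.68 ± 0.30 (adjusted p = 0.00484). tuba1a.S is also a neuronal tubulin gene and stood at 5.39, 10.3 and 12.6 CPM in induced and 1.35, 1.05 and 1.098 CPM in control caps of stage 17. For tuba1a.S the effect change was 3.57 ± 0.56 (adjusted p = 0.00268).

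The regulators of the ciliated fate show how much induced library c of stage 13 weighs. mcidas.L, which starts the multiciliated programme, stood at 2.64, 0.215 and 1.08 CPM in induced and 64.9, 64.4 and 65.8 CPM in control caps of stage 17. At stage 13 mcidas.L stood at 0.109, 0.101 and 20.7 CPM in induced libraries a, b and c and at 149, 197 and 208 CPM in control caps. With all libraries its effect change was −0.37 ± 1.95 (adjusted p = 0.925), and without induced library c it was 4.97 (adjusted p = 0.0211). foxj1.S, the forkhead factor of motile cilia, likewise held 0.437, 0.101 and 12.3 CPM in the induced libraries of stage 13 and had −0.999 with and 2.61 without that library. Positive members of the ciliated list numbered 10 without it and negative ones 15. The T-box repressor gene tbx3.L, a BMP target in ventral ectoderm, held 0.0547, 0.101 and 16.4 CPM in induced libraries a, b and c of stage 13, against 162, 164 and 157 CPM in control caps. Its effect change was −1.07 (adjusted p = 0.715) with all libraries and 4.36 (adjusted p = 0.0139) without induced library c. Induced libraries a and b of stage 13 thus held almost none of these transcripts, which were chosen after their values were seen. What sets library c apart was not tested.

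The same library moved the counts of goblet and epidermal genes. Of 15 goblet and small secretory cell genes, 1 was positive with all libraries, where 10.3% of all genes were. Without induced library c of stage 13, 8 of the 15 were positive. The lectin gene itln1.L, a goblet cell product, stood at 1153, 465 and 1162 CPM in induced and 2129, 3239.8 and 3649 CPM in control caps of stage 17. At stage 13 itln1.L stood at 11.04, 7.72 and 178 CPM in induced libraries a, b and c and at 504, 775 and 923 CPM in control caps. For itln1.L the effect change was 2.56 ± 1.33 (adjusted p = 0.234) with all libraries and 4.40 (adjusted p = 0.00131) without library c. For the keratin gene krt12.4.L the values were 1.992 (adjusted p = 0.157) and 3.06 (adjusted p = 0.000914). Positive epidermal members numbered 18 without the library, against 10 with it. The number of differences that shrank over all genes was 1121 without and 685 with it, and 11.5% of the 23237 genes then tested were positive.

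**Figure D4:**
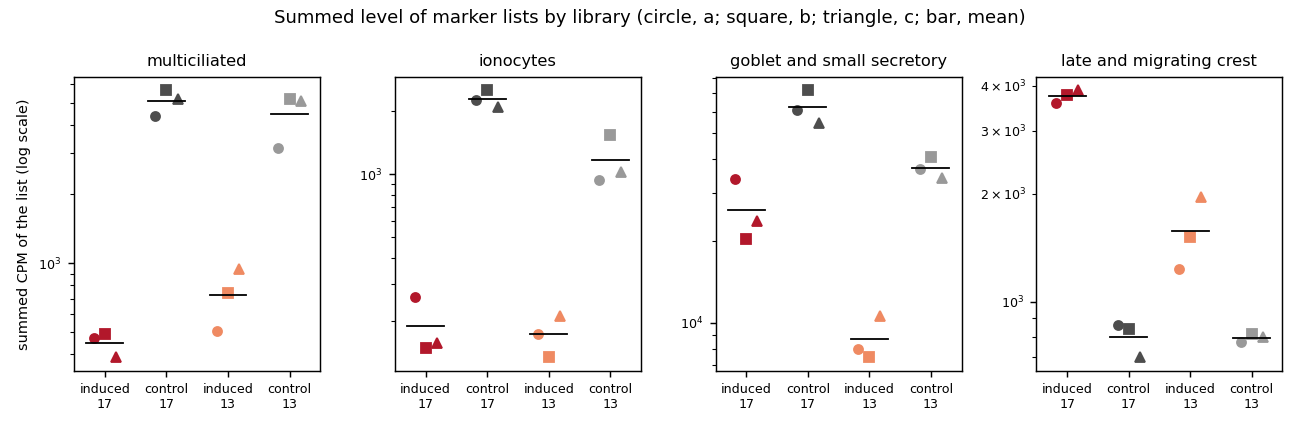
Summed CPM of 4 marker lists on a log axis, with induced caps of stage 17, control caps of stage 17, induced caps of stage 13 and control caps of stage 13 on the horizontal axis; each symbol is 1 library and each bar a mean of 3. The gap between induced and control caps is wider at stage 17 for the multiciliated, ionocyte and late crest lists and narrower for the goblet list, and induced library c (triangle) is the highest of its group at stage 13 in all 4 panels.

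Ionocytes, the acid- and base-secreting cells of the epidermis, had the lowest list median, −2.48, with 5 of 27 members negative and none positive by edgeR (0 by DESeq2, 1 at an unadjusted p under 0.05). Over all genes tested, 7.16% were negative and 10.3% positive. Without induced library c of stage 17, 3 ionocyte genes were negative. All 27 were lower in induced caps at stage 17 and 24 at stage 13, where 29.6% and 28.5% of all genes were. In control caps the median member rose by 1.40 between the stages, and in induced caps it changed by −0.11. Only 11 of the 27 averaged at least 1 CPM in induced caps of stage 17, and 2 had no count there, so the list median rests partly on low counts. The list summed to 148 to 261 CPM in induced and 2085 to 2513 CPM in control caps of stage 17. At stage 13 the sums were 134 to 210 CPM in induced and 943 to 1533 CPM in control caps. Without induced library c of stage 13 the list median was −0.62, with 5 members negative and 1 positive. The proton pump subunit gene atp6v1e1.L held 47.5, 32.5 and 25.3 CPM in induced and 193, 193 and 141 CPM in control caps of stage 17, against 67.9, 57.8 and 43.6 CPM in induced and 88.3, 101 and 73.6 CPM in control caps of stage 13. The effect change of this gene was −1.70 ± 0.19 (adjusted p = 0.000549). The ionocyte master factor foxi1.L was not called (−1.41 ± 1.66, adjusted p = 0.608), with 0.273, 0.101 and 5.53 CPM in induced libraries a, b and c of stage 13 and 50.05, 98.8 and 71.7 CPM in control caps of that stage.

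Of 42 adhesion and matrix genes, 7 were positive and 8 negative, where 10.3% and 7.16% of all genes were, with 4 positive without induced library c of stage 17, control library b of stage 17 or control library a of stage 13. The fibronectin gene fn1.S, the matrix protein on which crest migrates, held 707, 236 and 316 CPM in induced and 46.9, 26.9 and 27.4 CPM in control caps of stage 17. At stage 13 fn1.S held 194, 99.4 and 134 CPM in induced and 158, 80.6 and 96.5 CPM in control caps, groups that overlapped. For fn1.S the effect change was 3.17 ± 0.21 (adjusted p = 3.2e-05), and library a was the highest in each of the 4 groups. The N-cadherin gene cdh2.S grew by 3.74 ± 0.33 (adjusted p = 0.000164), with 21.2, 30.8 and 46.6 CPM in induced and 0.938, 0.82 and 1.04 CPM in control caps of stage 17. Control caps fell by more than induced caps, with a drop of 4.31 on the log2 scale. The collagen gene col1a2.L had 3.26 ± 0.54 (adjusted p = 0.00458). Laminin lamb1.S (−2.97 ± 0.45, adjusted p = 0.00343) and the collagen XVIII gene col18a1.S (−2.87 ± 0.33, adjusted p = 0.000683), both basement membrane genes, were negative.

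Of 58 cell cycle genes tested, 12 were positive and 8 negative, where 10.3% and 7.16% of all genes were (list median 0.07). The positive ones, which act in DNA replication or at the G1/S transition, were mcm2, mcm4 and mcm5 in both copies, mcm3.L, pcna.S, ccne2.L, e2f1.S and cdc25a in both copies. mcm4.S, a subunit of the replicative helicase, held 36.4, 42.7 and 60.5 CPM in induced and 5.63, 5.74 and 5.71 CPM in control caps of stage 17. At stage 13 mcm4.S held 77.9, 84.8 and 82.5 CPM in induced and 33.2, 29.7 and 32.8 CPM in control caps, and its effect change was 1.65 ± 0.21 (adjusted p = 0.00108). Its level was lower at stage 17 in both kinds of caps, and more so in control caps. The negative ones were ccna1 in both copies, a gene of multiciliated cells, and the mitotic genes ccnb2.L, bub1.L, cdk1 in both copies, plk1.L and aurka.L. Their changes were small, −0.44 to −0.88 apart from ccna1, and aurka.L, bub1.L and plk1.L were not called with library totals. These roles were looked at after the members' values were seen. Over fits that left out 1 library, 8 to 11 members were positive and 3 to 7 negative, with 3 negative without induced library c of stage 17, control library a of stage 17 or control library b of stage 13.

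None of 124 ribosomal protein genes was called in either direction by edgeR or DESeq2 (1 positive at an unadjusted p under 0.05), and their median was 0.04. Of 34 housekeeping genes 4 were positive and 4 negative, near the 10.3% and 7.16% over all genes, and 2 were negative without induced library b or control library c of stage 17. The cytoplasmic actin gene actb.L held 874, 669.7 and 815 CPM in induced and 2110.4, 2193 and 1559 CPM in control caps of stage 17. At stage 13 actb.L held 575, 795 and 701 CPM in induced and 507, 621 and 739 CPM in control caps. The groups overlapped at stage 13 and parted at stage 17, with an effect change of −1.46 ± 0.27 (adjusted p = 0.00692) and of −1.06 ± 0.18 (adjusted p = 0.00398) for actb.S. Both stayed called and negative with library totals and with DESeq2.

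For the lists of this paragraph, the shares over all genes tested were 10.3% positive and 7.16% negative. Of 27 neuronal genes 4 were positive and 1 negative (median 1.002), and 0 to 4 were positive when 1 library was left out. Their summed level was 202 to 271 CPM in induced and 164 to 249 CPM in control caps of stage 17, against 147 to 268 CPM in induced and 319.8 to 404 CPM in control caps of stage 13. Among 22 mesoderm genes 2 were positive and 3 negative (median −0.77). Leaving out induced library c of stage 13 gave 5 negative members and a median of −1.41. The noggin gene nog.L, a BMP antagonist, had −4.49 ± 0.55 (adjusted p = 0.000872), with 4.40, 3.44 and 6.24 CPM in induced caps of stage 17 and 17.2, 21.2 and 22.6 CPM in those of stage 13. hand2.L and hand2.S, bHLH factors of heart and of ventral tissue, grew in the negative sense. hand2.S stood at 0.57, 0.215 and 0.231 CPM in induced and 18.5, 29.8 and 21.8 CPM in control caps of stage 17, and at 0.656, 0.555 and 1.37 CPM in induced and 2.45, 4.96 and 4.32 CPM in control caps of stage 13, with an effect change of −3.98 ± 0.62 (adjusted p = 0.00266). The Wnt ligand gene wnt11b.L, counted in the mesoderm list, had 3.80 ± 0.40 (adjusted p = 0.000403), with 22.8, 26.2 and 24.3 CPM in induced and 0.833, 1.003 and 1.92 CPM in control caps of stage 17. Of 14 muscle genes 1 was called, upward, and the list summed to 29.5 to 44.4 CPM in induced and 78.8 to 97.2 CPM in control caps of stage 17. Of 10 endoderm genes 1 was positive and 3 negative. In the pigment list 1 of 13 was positive and 2 were negative. pmel.S, a melanosome gene, fell to 108, 148 and 83.3 CPM in induced and 53.3, 43.3 and 37.3 CPM in control caps of stage 17, against 1057, 1324 and 798 CPM in induced and 188, 156 and 149 CPM in control caps of stage 13. Of 21 placode genes 2 were positive (9.52%) and 1 negative (4.76%), below the shares over all genes. Of 35 pluripotency regulators 6 were negative and none positive by edgeR (0 by DESeq2, 2 at an unadjusted p under 0.05). Of the 8 cement and hatching gland genes counted 1 was positive. The hatching protease genes astl2d.2.L and astl2d.3.L, both called positive, were not matched to that list. These small counts moved with single libraries: no neuronal gene was positive without control library b of stage 13, and 3 pluripotency genes were negative without induced library b or c of stage 17, control library a or b of stage 17, induced library b of stage 13 or control library a or b of stage 13. The pluripotency gene lin28a.L, an RNA-binding regulator of early growth, had −1.43 ± 0.24 (adjusted p = 0.0038), with control caps at 127, 124 and 80.2 CPM at stage 17 and 45.5, 49.1 and 56.9 CPM at stage 13.

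**Figure D5:**
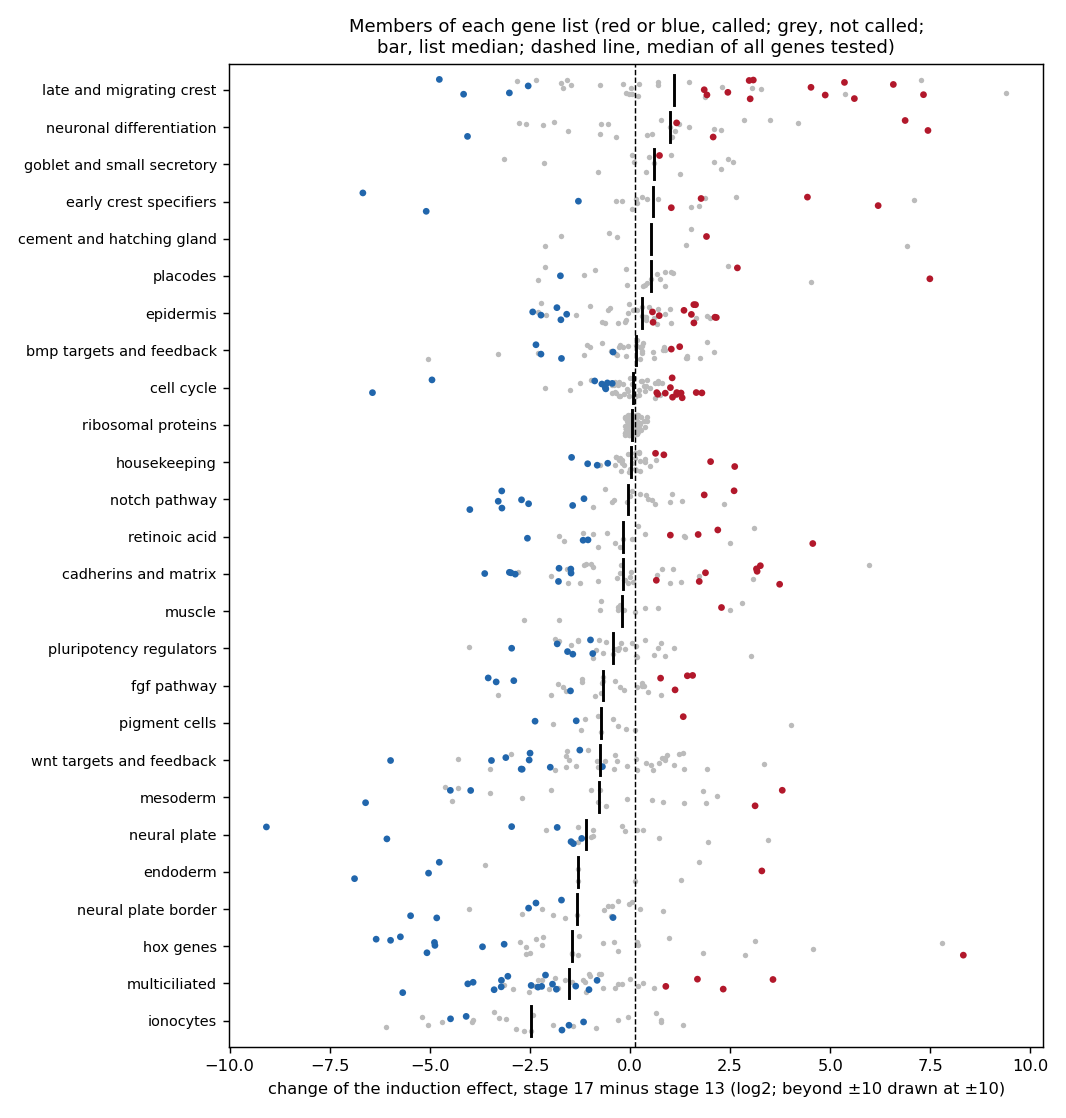
Effect change (log2, stage 17 minus stage 13, horizontal axis) of each tested member of 26 gene lists (vertical axis, ordered by list median); red and blue points passed an adjusted p of 0.05 and grey ones did not, bars are list medians and the dashed line is the median of all genes, 0.12. The late crest list has the highest median and the ionocyte list the lowest.

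Some of the largest effect changes lay outside the lists. Where a group holds fewer than 10 counts, as for astl2d.2.L, cav1.L and ngf.S here and for wnt8a.L, twist1.S, hoxb1.S and nog.L above, the fitted size depends on the prior count of the fit. The clearance receptor gene for natriuretic peptides, npr3.L, held 71.7, 78.6 and 44.9 CPM in induced caps of stage 17 and 21.3, 23.8 and 8.82 CPM in those of stage 13. Its control caps held 1 count at stage 17 and 4.09, 1.24 and 0 CPM at stage 13, and it was 3792-fold higher (95% counting interval 680.3 to 149820) in induced caps of stage 17 (adjusted p of the effect change = 0.00879). A hatching protease gene, astl2d.2.L, appeared in induced caps, with 11.1, 78.8 and 45 CPM at stage 17, library b highest, and 0, 0.319 and 0.0549 CPM in control caps. Every library of stage 13 was under 0.3 CPM, and its effect change was 8.43 ± 1.43 (adjusted p = 0.00409). The checkpoint receptor gene vsir.L likewise rose in induced caps, to 12.8, 9.23 and 9.08 CPM at stage 17, against 0.219, 0.252 and 0.558 CPM at stage 13. Control caps of stage 17 held 2 counts of vsir.L, which was 303-fold higher (95% counting interval 83.4 to 2503) in induced caps of that stage, and its effect change was called (adjusted p = 0.00628). In control caps the caveolin gene cav1.L, the main protein of caveolae, rose by 8.56, to 29.8, 48.8 and 20.1 CPM at stage 17, against 0.102, 0.0689 and 0.0584 CPM at stage 13. Induced caps held 1.55, 3.22 and 1.08 CPM of cav1.L at stage 17 and 0.601, 2.52 and 1.32 CPM at stage 13, so induced libraries lay below control libraries at stage 17 and above at stage 13. For cav1.L the effect change was −8.19 ± 0.55 (adjusted p = 3.79e-05). The nerve growth factor gene ngf.S moved in the same way, with 0.0518, 0.215 and 0.077 CPM in induced and 12.45, 12.3 and 6.31 CPM in control caps of stage 17. No library of stage 13 held more than 0.601 CPM of it, and its effect change was −8.62 ± 0.68 (adjusted p = 9.74e-05). tsku.S, whose secreted product binds BMP and Wnt pathway proteins, shows a gap that closed: 12.48, 13.8 and 16.3 CPM in induced and 12.9, 8.25 and 10.6 CPM in control caps of stage 17, against 9.68, 16.9 and 15.6 CPM in induced and 192, 106 and 157 CPM in control caps of stage 13. For tsku.S the effect change was 3.83 ± 0.38 (adjusted p = 0.000426).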

How the data were processed

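Poly(A) RNA of 12 frog libraries was analysed. Per the submitters' processing notes, reads were handled with fastp 0.23.2, STAR 2.6.0 and HTSeq 1.99.2; no source used here names the build, the annotation or the strand setting. The authors deposited raw read counts per gene, and these were used after 5 HTSeq summary lines were set aside (reads in no gene 10.2 to 11.9%, ambiguous 0.356 to 0.512%, not unique 11.6 to 12.2%). Near-identical copies and overlapping genes are therefore uncertain. No column was left unmapped.

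Counts were tested with edgeR 4.0.16 in R 4.3.3 (limma 3.58.1): TMM scaling (factors 0.887 to 1.16), filterByExpr by group, robust quasi-likelihood fit of 4 group means plus the letter as a block, two-sided, Benjamini-Hochberg adjustment over 22488 genes, threshold 0.05. The block rests on the data: deviations of same-letter libraries correlated at 0.219 to 0.554 in 18 of 18 pairs, and of different letters at −0.401 to −0.0202. The negative values add no separate support, because deviations from a group's mean cancel out within that group. CPM values use TMM-scaled totals. Values after ± are standard errors derived from the fold and the F statistic, nominal where a group is nearly empty; 327 called genes had a group with under 10 counts. Bounds use 3 counts per group, and 95% intervals cover counting error only. On simulated counts for this contrast, 11% of 2-fold and 78% of 4-fold changes (100 genes each) were recovered, with 13 false calls among 21866 genes. Beside the 11 and 78 genes recovered, these 13 false calls made up a share of the calls above the threshold of 0.05. Far fewer genes changed there than were called in the data, which makes the adjustment stricter. The shares recovered are therefore not those of the test on the real counts. Just inside the threshold lay an unnamed locus (adjusted p = 0.0499). Just outside lay another unnamed locus (0.05001) and then braf.S (0.0501).

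A difference called at both stages with 1 sign grew or shrank by its absolute size; other classes follow the calls. The 26 gene lists and the rules were chosen with earlier results of these data known. List symbols were matched exactly apart from the copy letter, so numbered forms such as gbx2.1 and astl2d.2 were not counted. Genes named are, per class and sign, the 4 largest called changes with a symbol, at least 10 CPM in a group and 1 sign in all letters; per list, up to 4 largest called members and any against its majority; and all copies of 15 crest and injected genes. Further list members are named where a count turns on them, after their values were seen. Alternatives were no block, a block within stage, all 18 frog libraries, library totals, DESeq2 1.42.0, no filter, at least 2-fold, and leaving out each library or letter.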

Additional observations from a re-analysis of the deposited data

Results flagged for a closer look

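The interaction test itself sets the 2 stages against each other, so the genes given here are those whose difference between induced and control caps changed sign. There were 261 such genes (1.16% of those tested), each called at both stages and in the test of the effect change by edgeR's quasi-likelihood test. The largest changes were taken among those with a symbol, a mean of at least 10 CPM in a group and 1 sign in all letters. The 8 so chosen, 4 in each direction, were nr2f1.S (6.58), cxcr4.S (5.603), ets1.S (4.88) and rdh10.L (4.56), and ngf.S (−8.62), cav1.L (−8.19), acap3.S (−5.86) and gbx2.1.S (−5.63). All 8 kept their call for the effect change when any 1 library was left out. The calls at each stage, which define a reversal, were not followed gene by gene in those fits. For gbx2.1.S, a homeobox gene of the border and posterior neural plate, the libraries held 3.94, 3.74 and 10.4 CPM in induced and 32.1, 19.6 and 24.4 CPM in control caps of stage 17, and 29.1, 31.8 and 58.7 CPM in induced and 1.58, 6.61 and 2.69 CPM in control caps of stage 13. acap3.S held 3.004, 1.202 and 1.23 CPM in induced and 18.3, 15.4 and 11.5 CPM in control caps of stage 17, and 1.09, 3.08 and 0.355 CPM in induced and 0.0511, 0.207 and 0.351 CPM in control caps of stage 13, where the values are low and induced library c lies next to the highest control library. Groups of 3 libraries were not tested for single outlying values.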

How the results depend on the processing

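Of the 143 named genes that were called, 140 kept their call with DESeq2, 138 with library totals and 126 with the block within stage. It was kept by 122 without the filter, 121 with all 18 libraries and 111 without the replicate block, and by 87 in every fit that left out 1 library. Fewer kept it without all 4 libraries of a letter: 78 without a, 69 without b and 94 without c. None changed sign. Without the replicate block 2381 genes were called, 1338 positive and 1043 negative, with 566 grown, 623 appeared (called at stage 17 only) and 422 shrunken differences. With all 18 libraries 1503 were positive. Under a 2-fold minimum 1396 were positive, 646 grew and 727 appeared. Without letter a, 1394 genes were called (627 positive, 767 negative; 438 grew, 364 appeared, 170 shrank, 273 faded, that is were called at stage 13 only, and 149 reversed). Without letter b, 1109 were called (553 and 556; 289, 292, 156, 246 and 126). Without letter c, 2017 were called (1231 and 786; 289 grew, 495 appeared, 555 faded, 159 reversed). Leaving out 1 library gave 2567 to 4082 calls, 1429 to 2670 positive and 1093 to 1493 negative, 618 to 1047 grown, 622 to 1074 appeared, 333 to 1121 shrunken, 567 to 838 faded and 213 to 270 reversed differences. Fits without a letter or a library hold fewer libraries, and other causes were not tested. Some values of genes not called turned sign. snai2.L was 0.11 without induced library c of stage 13, 0.07 without control c of stage 13, 0.19 without control a of stage 17 and 0.0151 without letter c. pax3.S was 0.03 without induced a of stage 17, 0.32 without control a of stage 17 and 0.60 without letter a. chrd.1.L was −0.38 without control a of stage 13 and −0.19 without letter a, and zic1.S −0.51 and −0.77 there. foxd3.S was −0.47 without control b of stage 13 and −1.09 without letter b, and myc.S −0.0161 without control c of stage 17 and −0.12 without letter c. Over all fits that left out 1 library, chrd.1.L ranged from −0.38 to 2.37, foxd3.S from −0.47 to 3.67, myc.S from −0.0161 to 0.42, pax3.S from −1.34 to 0.32, snai2.L from −0.47 to 0.19 and zic1.S from −0.51 to 4.08. Few simulated 2-fold changes were recovered, in counts with far fewer changed genes than were called here. The control groups of sox10 and pax3.L are nearly empty.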

Other observations

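The L and S copies of a gene were compared. Both copies were tested for 5767 genes, and both were called for 434 of them, 400 in the same and 34 in the opposite direction. For another 1400 genes 1 copy was called, and the other copy, not called, had the same sign in 1009 and the opposite sign in the rest. Examples of opposite calls, chosen after their values were seen, are the kinase gene aatk (4.45 for the L copy and −3.74 for the S copy), the creatine kinase gene ckb (−1.42 and 2.22) and the proteoglycan gene sdc2 (1.14 and −1.91). Reads that aligned to more than 1 place were not counted, and how many each pair lost was not tested.

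Other genes outside the lists moved in control caps. onecut1.2.S, a homeobox factor gene, held 7.35, 0.687 and 4.27 CPM in induced and 1.88, 1.504 and 3.62 CPM in control caps of stage 17, against 1.26, 1.11 and 3.70 CPM in induced and 45.1, 30.1 and 52.2 CPM in control caps of stage 13. The groups parted at stage 13 and overlapped at stage 17, with an effect change of 5.17 ± 0.77 (adjusted p = 0.00315) by edgeR's quasi-likelihood test. The acetoacetyl-CoA synthetase gene aacs.L had 6.56 ± 0.89 (adjusted p = 0.00175), with 1.41, 0.775 and 1.54 CPM in control caps of stage 17 and 28.2, 8.75 and 17.01 CPM in those of stage 13.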
